A study of Caenorhabditis elegans with 2 samples.

Results

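CEC-7 peaks were examined at 66 genes for factors of pre-mRNA splicing and of translation, out of 19971 protein-coding genes on the nuclear chromosomes of Caenorhabditis elegans. The genes were taken by symbol: those starting with eef- or eif-, the genes ifg-1, inf-1, iff-1, iff-2, sfa-1, uaf-1 and uaf-2, and the numbered snr, rsp and prp genes. The set itself was chosen with earlier results of these data known. A gene was counted as having a peak when a listed peak overlapped its body, or the 500 bp on either side, by at least 1 bp, and it was given the score of the highest such peak. Of the 66 genes, 37 had a peak and 29 had none.

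The peaks come from 1 chromatin immunoprecipitation (ChIP-seq) library, numbered replicate 2, made with an affinity-purified rabbit polyclonal antibody against CEC-7. The animals were whole hermaphrodites of the strain fem-2(b245), genotype fem-2(b245)III, described as young adults that contain a germline and grown at 20 degrees Celsius. An input DNA library of the same strain, genotype and stage, also numbered 2, is the other sample, and no processed file of it was used here. With 1 library the values carry no replicate error, no test between conditions is possible, and germline and somatic chromatin are mixed. The fem-2 gene acts in sex determination, and both libraries carry its mutation, so no wild-type animals stand beside them. The tissue could not be checked against marker genes, because a peak list holds no expression values.

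Splicing removes introns from pre-mRNA. The Sm proteins form a ring on the small nuclear RNAs, SF1 and U2AF recognise the branch point and the 3′ end of the intron, SR proteins bind exons and help to select splice sites, and the proteins named after yeast PRP factors are parts of the spliceosome or act on it. In translation, initiation factors bring initiator tRNA, mRNA and ribosomal subunits together, and elongation factors then deliver aminoacyl-tRNA and move the ribosome along. Most of these genes are needed in every cell, and both machineries are used heavily in the germline, which supplies the egg. CEC-7 is named for its chromodomain, a fold that in many proteins binds methylated histone tails.

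The deposited list held 2767 peaks, of which 2719 lay at a protein-coding gene by the same rule. The score is the authors' own value per peak on a scale the file does not state, with a median of 127 over the list and a range of 50.02 to 1951.83. It was used only to describe and rank peaks within the list. Peak positions are on WormBase WS220 and gene positions on RefSeq's WBcel235. The builds were taken to differ by about 100 bp at most, so overlaps decided by fewer bases than that are uncertain. The gene table gives no strand, so the 2 ends of a gene are called lower and upper by coordinate, and no peak was placed at a gene start.

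Splicing and translation factor genes had peaks more often than other protein-coding genes of their chromosomes. The share was 56.1% (37 of 66, exact binomial 95% interval 43.3 to 68.3%), against 17.4% of the 19905 other genes and 24.6% when the other genes were weighted by the chromosomes of the 66. At that weighted share 16.2 of the 66 would have had a peak, so the observed number was 2.28 times as high. The interval treats genes as independent draws and covers counting error only. Genes are not replicates, neighbouring genes can share a peak, and the set was chosen with earlier results of these data known. No test over genes was made.

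On 5 of the 6 chromosomes the share exceeded that of the other genes. On chromosome I 10 of 17 had a peak (58.8%, against a background of 29.4% of the other genes), and on II 12 of 19 (63.2%, against 21.1%). On III, where peaks are dense, it was 8 of 15 (53.3%, against 37.1%). The counts were smaller on IV, with 3 of 7 (42.9%, against 16.0%), and on V, with 4 of 7 (57.1%, against 7.96%). X carries only eef-1A.2 of this set, which had no peak, and 0.183% of its other genes had one. The distance between the 2 shares was thus widest on V, where few genes have peaks, and narrowest among the autosomes on III.

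**Figure D1:**
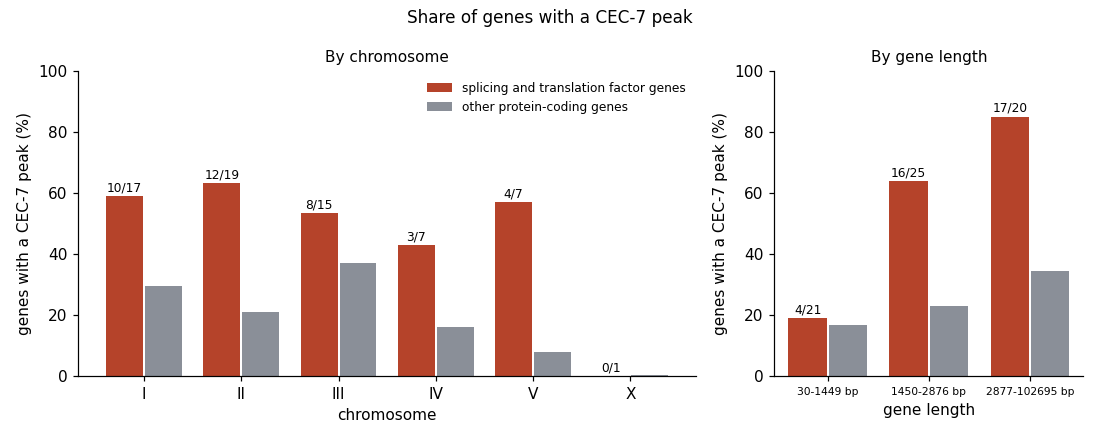
Share of genes with a CEC-7 peak (percent, linear axis from 0) for the 66 splicing and translation factor genes (red, with counts) and other protein-coding genes (grey), by chromosome on the left and by gene length on the right, where the grey bars are weighted by the chromosomes of the red ones. The red bars are higher on all 5 autosomes, while among the shortest genes 4 of 21 (19.0%) stand beside 16.7%.

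Gene length went along with having a peak. The protein-coding genes were divided into 3 classes of equal number by length. Of the 21 factor genes up to 1449 bp, 4 had a peak (19.0%), against 16.7% of other genes of that class weighted by chromosome. In the middle class, from 1450 to 2876 bp, 16 of 25 had one (64.0%, against 22.8%), and among those of 2877 bp or more 17 of 20 (85.0%, against 34.3%). The excess therefore lay in the middle and long classes, and the short factor genes were close to their background. The 37 genes with a peak had a median length of 2438 bp and the 29 without one 1383 bp, and the same order held in the other genes (2804.5 and 1879 bp). Taken within chromosome and length class together, the share of other genes was 24.3%, so length did not move the comparison of the whole set.

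The role groups differed widely in their counts, from 0 of 6 elongation factor genes to 13 of 13 prp genes. Translation factors together had peaks at 17 of 35 genes (48.6%, against 24.6% of other genes of the same chromosomes and length classes). Splicing factors had them at 20 of 31 (64.5%, against 24.0%). How the groups fared is described next, in the order of their roles.

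**Figure D2:**
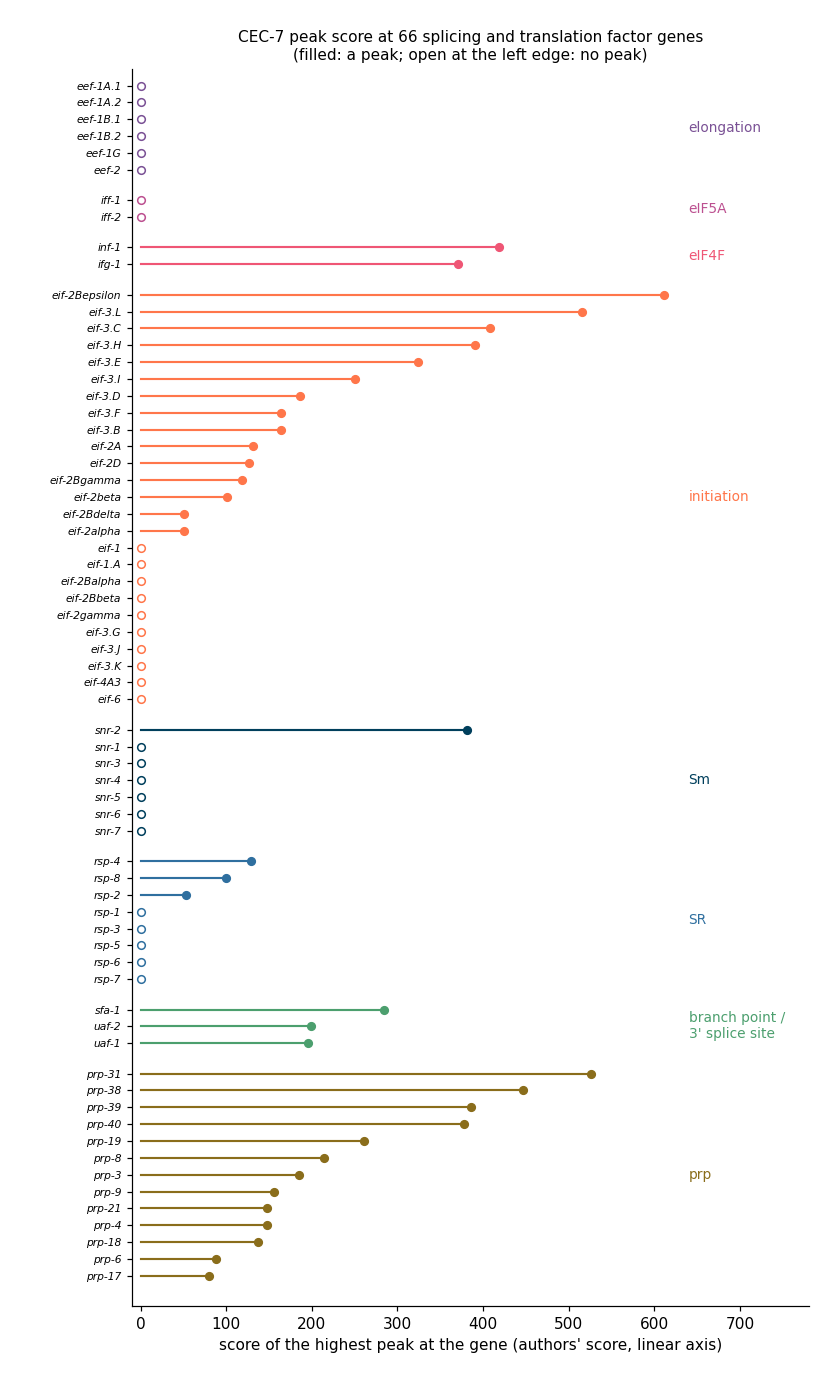
Score of the highest CEC-7 peak (authors' score, linear axis) at each of the 66 genes, grouped by role; filled points mark genes with a peak and open points at the left edge genes without one. The 8 elongation factor and eIF5A genes are all open, the 13 prp genes are all filled, and the highest score is 611.44 at eif-2Bepsilon.

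No elongation factor gene had a peak. The group holds eef-1A.1 and eef-1A.2, which encode the protein that carries aminoacyl-tRNA to the ribosome, eef-1B.1, eef-1B.2 and eef-1G for its nucleotide exchange complex, and eef-2 for the factor that translocates the ribosome. At the background share 1.27 of these 6 genes would have had a peak, so a count of 0 is a small shortfall in a small group. Peaks lay near several of them all the same. The nearest began or ended 910 bp from eef-1B.1, 1635 bp from eef-2 and 2282 bp from eef-1A.1, and 6 of the 10 protein-coding genes nearest in order to eef-2 had a peak. The distances were 5509 bp at eef-1G, 9639 bp at eef-1B.2 and 462155 bp at eef-1A.2 on X. Both eIF5A genes also lacked a peak, where the background share was 21.0%. The factor they encode helps the ribosome past difficult peptide bonds, and in the worm iff-1 is needed in the germline and iff-2 is its somatic counterpart. The nearest peak was 2266 bp from iff-1 and 17500 bp from iff-2.

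Both genes for the scaffold and helicase of the cap-binding complex eIF4F had a peak, against 0.713 at their background share of 35.6%. At inf-1, which encodes the RNA helicase eIF4A, the peak at III 6930257 to 6937371 scored 418.89 and covered 93.2% of the gene, but only 23.9% of its 7115 bp lay over inf-1, a larger part lay over byn-1, and it also reached F57B9.8 and coq-2. The peak at ifg-1, the eIF4G gene, lay wholly inside it (II 8217383 to 8221614, score 370.61) and covered 81.8% of its 5175 bp. Only 1 of the 10 genes nearest to ifg-1 had a peak, so this was a local peak over a single gene.

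Among the other initiation factors 15 of 25 genes had a peak (60%, against 24.9% of other genes of the same chromosomes and length classes), with scores from 50.94 to 611.44 and a median of 165. The 11 genes of eIF3, the large complex that binds the small ribosomal subunit, accounted for 8 of these (72.7% of the 11, against 26.2%). The cover was broad at eif-3.D (100% of the gene, score 186.41), eif-3.B (97.0%, score 164.45) and eif-3.C (92.4%, score 408.57). At eif-3.H the peak I 4445174 to 4450178 scored 390.86 and covered 76.0% of the gene, yet more of it lay over the neighbour cps-6. The highest score of the complex, 515.21, belonged to II 5622903 to 5629623 in the margin beside eif-3.L and over F59E12.6. A second peak there, II 5617150 to 5621905 with a score of 360.28, accounted for the 80.1% of eif-3.L that was covered. For eif-3.I the higher peak (250.09) reached only 47 bp into the gene, fewer than the difference allowed for between the builds, and a weaker one of 50.27 lay inside it. At eif-3.E (323.93) and eif-3.F (164.55) peaks lay in the margin only. The genes eif-3.G, eif-3.J and eif-3.K had none, at 13557, 8692 and 83174 bp from the nearest.

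The genes of eIF2, which brings the initiator tRNA, and of its exchange factor eIF2B were mixed, with peaks at 2 of 3 eIF2 genes (against 28.2%) and 3 of 5 eIF2B genes (against 25%). The highest score of all 66 genes, 611.44, was at eif-2Bepsilon, the catalytic subunit of eIF2B. Its peak, II 8663207 to 8667998, ranked 133 in the list, covered 54.0% of the gene and lay more over the neighbour etc-1. At eif-2Bgamma the score was 118.53 (72.9% covered) and at eif-2Bdelta 50.98 (27.2% covered), while eif-2Balpha and eif-2Bbeta had no peak, the nearest being 912 and 3933 bp away. For eIF2 itself, eif-2beta was covered to 97.5% by a peak of 101. The score at eif-2alpha was 50.94, for a peak that ended 21 bp from the gene and lay over phb-1. No peak was counted at eif-2gamma, with the nearest 1019 bp away. Subunits of 1 complex thus ranged from no peak to the strongest of the set.

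Of the 6 remaining initiation factors 2 had a peak (33.3%, against 20.6%). These were eif-2A (score 131.04, 84.5% covered) and eif-2D (126.48, 97.1% covered), each with a peak inside the gene by the positions used. The eif-2D peak began only 5 bp inside it, fewer than the difference allowed for between the builds. Neither eif-1 nor eif-1.A, whose products keep the scanning ribosome in search of the start codon, had one, with the nearest peaks 1389 and 2149 bp away. The same was true of eif-6, 11002 bp from the nearest, whose product keeps the ribosomal subunits apart. At 32998 bp lay eif-4A3, which despite its name encodes a core protein of the exon junction complex left on spliced mRNA. With 6884 bp it was the longest of the 66 genes without a peak.

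The Sm protein genes, short genes of 369 to 1216 bp, had 1 peak among 7, close to the 1.2 of their background. It lay at snr-2, the SmB gene. That peak, I 13339399 to 13343042 with a score of 381.28, covered 99.8% of snr-2, but only 22.7% of the peak lay there and more of it over ola-1. The nearest peaks to the other 6 were far off, from 5793 bp at snr-5 (SmF) and 15244 bp at snr-1 (SmD3) to 46626 bp at snr-3 (SmD1). In between lay snr-6 (SmE) at 16364 bp, snr-7 (SmG) at 28123 bp and snr-4 (SmD2) at 45550 bp. Of the 70 genes nearest to Sm genes 11 had a peak (15.7%), the lowest such share of any role group. No matched share of neighbours was taken by role.

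SR protein genes had peaks near or below the median score of the list, or none, 3 of 8 with a background of 1.79. The highest score was 129.32 at rsp-4, the SC35 homologue, where 78.4% of the gene was covered, followed by 99.31 at rsp-8 with 67.6% and 52.53 at rsp-2 with 70.0%. No peak was counted at rsp-3, the homologue of the SR protein SF2/ASF, 4664 bp from the nearest, or at rsp-6 at 4830 bp. A pair of the genes without a peak lay in long stretches without any, rsp-5 at 45047 bp and rsp-7 at 52167 bp from the nearest. The neighbours rsp-1 and rsp-2 on chromosome II differed, since the peak over rsp-2 (II 11451236 to 11452500) ended 862 bp short of rsp-1. By contrast, snr-3 and rsp-5 follow each other on chromosome II, and both lacked a peak, at 46626 and 45047 bp from the nearest peak.

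All 3 genes for the recognition of the branch point and the 3′ splice site had a peak, against 0.822 at their background share of 27.4%. The SF1 gene sfa-1 carried 3 peaks over 65.4% of its 7158 bp, with scores of 283.8 (IV 17104190 to 17106388), 130.29 and 81.96. The gene uaf-2, for the small subunit of U2AF, lies near it on IV. It was covered to 95.1% by a peak of 199.5 that also touched the cyclophilin gene cyn-13. Its partner uaf-1, for the large subunit, had 2 peaks inside a gene of 13762 bp, of 195.4 and 122.67, and they covered 22.3% of it.

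All 13 prp genes had a peak, against 3.64 at the share of other genes of the same chromosomes and length classes. Scores ran from 80.3 to 525.47 with a median of 185, and 12 of the 13 were overlapped in the gene body. The exception was prp-18, whose product acts in the second step of splicing, with a peak of 137.47 that began 72 bp from the gene. The strongest was at prp-31, a gene for a protein of the U4/U6-U5 particle (I 5128079 to 5134176, score 525.47). It covered 85.9% of prp-31, though more of the peak lay over pfkb-1.1. At prp-38 the peak V 10802278 to 10808512 scored 446.13 and spanned the whole gene together with parts of secs-1 and of plrg-1, another gene for a spliceosome protein. The third was prp-39 with 385.94 at V 5678482 to 5683618, over the whole gene and into hmgs-1. The U1-associated prp-40 was spanned by a peak of 377.64 of which 96.6% lay over it. At the upper end that peak passed the gene by less than the builds may differ.

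Cover varied among the remaining prp genes, and prp-8 was covered almost end to end by a peak of its own. The peak over prp-8, which encodes the protein at the catalytic centre of the spliceosome, was 7964 bp long, lay wholly inside the gene and covered 95.5% of its 8338 bp, with a score of 214.79 (III 8164477 to 8172440). Over prp-21, the gene of an SF3A subunit, 3 peaks followed each other with scores of 116.25, 147.44 and 65 and a joint cover of 90.5%. The gene of another SF3A subunit, prp-9, had a score of 155.53 and a cover of 80.9%, and prp-4 had 147.31 and 86.7%. At prp-3 the score was 184.51 with 70.3% covered, and at prp-17 it was 80.3 with 78.1% covered. The peak at prp-19, for the ubiquitin ligase of the spliceosome, was the widest at any of the 66 genes, 8650 bp with a score of 261.04, but only 24.4% of it lay over prp-19 and the rest reached ulp-1, T10F2.2 and the glycyl-tRNA synthetase gene gars-1. Among the 12 prp genes overlapped in the body the least covered was prp-6, the longest of the 66 genes with 19875 bp, where 2 weak peaks of 88.26 and 57.96 covered 16.5%.

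**Figure D3:**
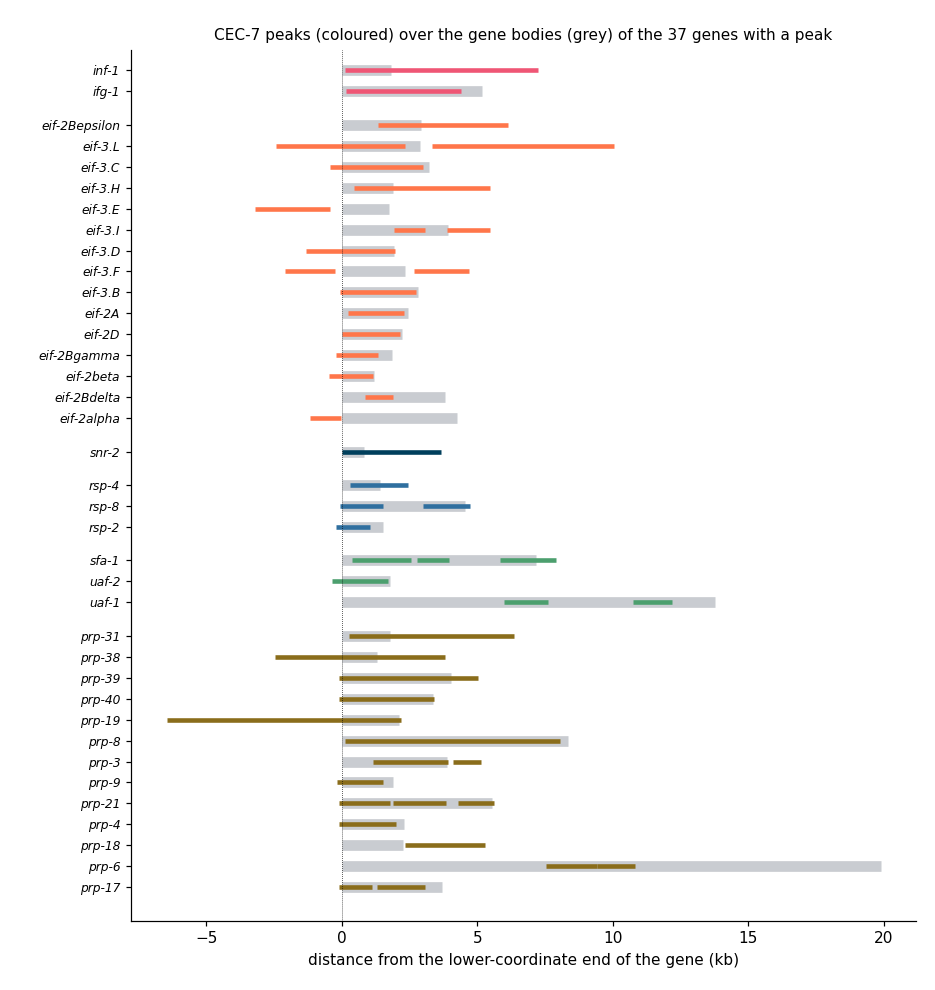
CEC-7 peaks (coloured lines) over the bodies (grey bars) of the 37 genes with a peak, in kb from the lower-coordinate end of each gene, with role groups in the colours of the score plot. Peaks at prp-8, ifg-1 and eif-2A stop within the gene, while those at inf-1, prp-31 and prp-19 run several kb into neighbouring genes.

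The peaks at these genes had a median score close to that at other genes with a peak, and they covered the genes broadly. The median score of the 37 genes with a peak was 186 (quartiles 129 and 378), against 183 for other genes with a peak when medians of their chromosomes were weighted by those of the 37. By chromosome the order varied: 287 against 177 on I, 151 against 197 on II, 205 against 215 on III, 200 against 137 on IV and 237 against 127 on V. The highest peak lay in the upper 50% of the list by score in 28 of the 37 (75.7%), against 63.8% of other genes with a peak, not weighted. None of the 37 highest peaks ranked among the first 100 of the 2767 in the list and 12 were among the first 500. These ranks were not counted for other genes. The part of the gene body covered had a median of 80.9%, against 57.4% in other genes with a peak, weighted in the same way. Gene length was not matched for cover. Its median was 2438 bp in the 37 genes and 2804.5 bp in other genes with a peak. At least 80% of the body was covered in 20 of the 37 (54.1%), against 34.0% of other genes with a peak, not weighted. The peaks at the 37 genes were not wider, with a median of 2199 bp against 2670 bp.

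A peak that spans several genes cannot be assigned to 1 of them. Each of the 37 genes had a highest peak of its own, so no pair of them shared one. That peak overlapped no other gene body in 13 cases, 1 in 15 and 2 or more in 9. No such count was made for other genes with a peak. In 24 cases (64.9%) more of the peak lay over the factor gene than over any other gene, against 54.4% for other genes with a peak, weighted by chromosome. These 24 genes had a median score of 151, against 381 in the other 13, and in the rest of the genome the medians were 153 and 213. Of the 12 genes with a peak among the first 500, only ifg-1, eif-3.C, prp-39 and prp-40 held the largest part of it. High scores in this set thus belonged mostly to wide peaks that lay more over a neighbour.

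The choice of 500 bp decided few genes. A peak overlapped the body of 33 genes, and 4 were counted through the margin only: eif-2alpha at 21 bp, prp-18 at 72 bp, eif-3.F at 258 bp and eif-3.E at 438 bp. Just outside it were rsp-1 at 862 bp, eef-1B.1 at 910 bp, eif-2Balpha at 912 bp and eif-2gamma at 1019 bp. The 29 genes without a peak were a median of 8692 bp from the nearest, against 33174 bp for other genes without one, a value not weighted by chromosome. Of the 29, 12 lay within 5000 bp of a peak and 13 beyond 10000 bp, and other genes were not counted by these distances.

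The surroundings of these genes were rich in peaks as well. Among the 5 nearest protein-coding genes on either side of each factor gene 40.2% had a peak, against 24.7% around other genes of the same chromosomes. Around factor genes with a peak it was 49.7%, against 44.1% around other genes with one. Around factor genes without a peak the share was 27.9%, against 18.2%. The shares around other genes were weighted by chromosome, and those around factor genes were not. Wide peaks count for more than 1 gene, so some of this likeness between neighbours is built in. By role no matched share was taken, and the eIF4F and eIF5A genes had only 20 neighbours each. The share itself ran from 15.7% around Sm genes and 20.0% around the eIF4F and eIF5A genes to 55.4% around prp genes. Around the elongation factor genes it was 31.7%. Of the other genes of their chromosomes 21.3% had a peak themselves, which is a different measure from a share of neighbours. In position, 48.5% lay in the central 33.3% of their chromosome, against 38.3% of other genes. Peaks were found at 59.4% of those in the centres (against 29.9%) and at 52.9% of those on the arms (against 20.9%).

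Related lists of the same processes gave counts for comparison. Of 65 other genes for spliceosome and associated proteins 41 had a peak (63.1%, against 23.9% of other genes of the same chromosomes and length classes). The list includes all cyn cyclophilins, not all of which act in splicing. Its highest scores were 779.08 at mog-3, 734.89 at the SF3B gene sftb-1 and 695.71 at snrp-200, the U5 helicase gene. For LSM and Sm assembly proteins, mostly short genes like the Sm genes, the count was 3 of 10, against a share of 15.7%, with 388.55 at smn-1 as the highest. Regulators of splicing had 9 of 22 (40.9%, against 28.1%), led by hrpf-1 with 1032.76 for a peak in its margin only, spk-1 with 620.84 and hrpk-2 with 482.95.

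On the side of translation, regulators and release factors had a peak at 15 of 16 genes (against 30.5%). The highest scores there were 982.93 at let-363, the gene of the TOR kinase, 841.31 at gcn-1 and 579.35 at efk-1, the kinase of eEF2. Of 33 aminoacyl-tRNA synthetase genes, which charge tRNAs, 21 had a peak (63.6%, against 28.7%). The leading scores were 960.58 at rars-1, 718.73 at yars-2 and 704.5 at lars-1. Cap- and poly(A)-binding proteins had 4 of 9 (44.4%, against 16.8%), with 910.93 at ncbp-2, 244.48 at ife-1 and 113.69 at ncbp-1. The cytosolic ribosomal protein genes, taken by the symbols rpl-, rps- and rla- and added after the counts above were seen, had a peak at 15 of 78 (19.2%, against 16.2%). Their median length was 747.5 bp, and like the Sm genes they were near their background. The elongation factor genes, with a median length of 2160 bp, had 0 of 6, where 1.27 would have had a peak at their background share. That shortfall is too small to set them apart from these groups.

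**Figure D4:**
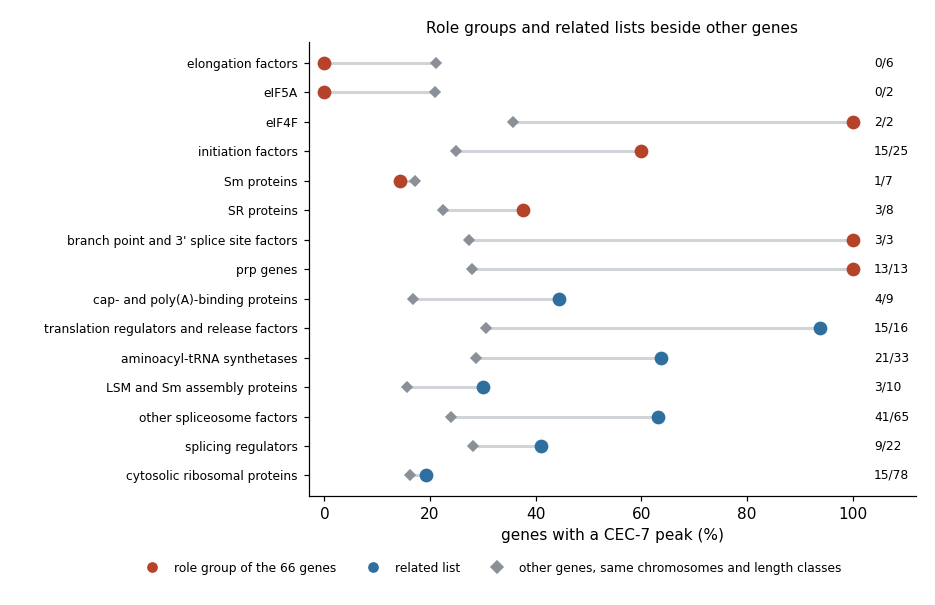
Share of genes with a CEC-7 peak (percent) in the 8 role groups of the 66 genes (red) and in 7 related lists (blue), with counts at the right, beside other protein-coding genes of the same chromosomes and length classes (grey diamonds). The prp genes (13 of 13) and translation regulators (15 of 16) lie far to the right of their diamonds, and the Sm genes (1 of 7) and ribosomal protein genes (15 of 78) next to theirs.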

How the data were processed

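ChIP DNA and input DNA were sequenced from 1 library each. Per the submitters' processing notes, the genome build was ce10 and the tools included BWA. Peaks were called with MACS on WormBase WS220, per the file headers and rows. Not given in the sources used here are the version and settings of MACS, whether it used the input, any pooling of replicates and the sequencing depth. Each deposited peak has a position and the authors' score.

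Gene positions, names and biotypes came from RefSeq's table for WBcel235, another build. The stated difference of about 100 bp was taken from the choice of the genes, not measured, and no gene position is printed. The overlap step was tested on simulated data. Shares of other genes were weighted by the chromosomes, or the chromosomes and length classes, of the genes compared. The genes and lists were chosen with earlier results of these data known. Named with full values were the 3 highest-scoring genes of each role group, all genes without a peak, families whose members differ, and the 3 highest of each related list; other genes among the 66, the prp genes in particular, were added to account for all. No test was made, since 1 ChIP library was analysed. Alternatives were other margins, the higher-scoring peaks, a minimum cover, length limits and leaving out chromosomes. Computations ran in Python 3.11.15 with pandas 2.3.3, NumPy 2.4.6 and SciPy 1.17.1, and plots in matplotlib 3.10.9.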

Additional observations from a re-analysis of the deposited data

How the results depend on the processing

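The share of splicing and translation factor genes with a peak (56.1%), its distance from other genes of the same chromosomes (31.4 percentage points) and the median score (186) were recomputed under other settings. Of 39 recomputed values 38 stayed within the 95% interval of the main value and 1 did not. The settings reuse largely the same genes and peaks, so most values were likely to stay inside. The 1 outside was the share with the 50% of peaks with the highest score, 42.4% (28 of 66), against 16.3% of other genes. That setting keeps fewer peaks by construction. The distance ran from 26.1 points there to 35.9 without chromosome III. Intervals were exact binomial for the share and its distance, and taken from the ranked scores for the median. With a minimum cover the share, 43.9%, lay just above the lower bound of 43.3%. Counting shared highest peaks once could not change the share, since no pair of the genes shared one. Nor could leaving out X change the median score, since its only factor gene had no peak. Without the margin 12 of 13 prp and 12 of 25 initiation factor genes had a peak. With margins of 400 and 600 bp, which allow for the builds, 36 and 37 of the 66 did. At 1000 bp eef-1B.1 also had one. The planned share of gene starts in a peak and its alternatives were not run, since the gene table gives no strand. No paired analysis was possible because the ChIP and the input are single libraries. Depth is unknown, so genes without a listed peak may carry CEC-7 below the caller's threshold.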
